A study of Homo sapiens with 10 samples.

Results

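The respiratory chain subunits described here are 103 protein-coding genes of the 58174 genes in the count tables, or of 19762 protein-coding genes. They were set by symbol: genes of the mitochondrial chromosome, and nuclear genes with the symbol patterns used for subunits of complexes I to V. This list was chosen with earlier results of these data known. Of its genes, 13 are encoded in mitochondrial DNA and 90 in the nucleus. The mitochondrial genes comprise 7 subunits of complex I, 1 of complex III, 3 of complex IV and 2 of complex V. The nuclear genes comprise 39, 4, 9, 17 and 21 genes of complexes I, II, III, IV and V. Of the 103 genes, 92 passed the filter on low counts, namely all 13 mitochondrial and 79 nuclear genes.

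RNA sequencing compared SNU-387 cells, an established line from a pleomorphic hepatocellular carcinoma, that stably expressed either YES WT or YES T348I. YES is a tyrosine kinase of the SRC family, and the substitution lies at the gatekeeper residue of the drug-binding pocket. Cells of both genotypes had been treated with dasatinib (100 nM), an inhibitor of SRC-family kinases, and untreated cells were not analysed here, so genotypes are compared under the drug only. Each genotype had 5 libraries, 3 with a longer and 2 with a shorter style of sample title (long-title and short-title libraries below), and the title style entered the model as a term. Both lines are stable lines made in 1 parental line, and the labels name no separate culture for each library. The p-values therefore cover the variation among these libraries alone, possibly technical. In RNA from whole cultures, fewer cells with a transcript and less of it per cell cannot be told apart.

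Oxidative phosphorylation passes electrons from NADH and succinate through complexes I and II, coenzyme Q, complex III, cytochrome c and complex IV to oxygen. Complexes I, III and IV pump protons, and complex V, the ATP synthase, uses the gradient to make ATP. Complexes I, III, IV and V combine subunits of both genomes, while complex II is wholly nuclear. The mitochondrial messenger RNAs are cut from long transcripts that cover each strand of the circular DNA, so neighbouring genes share their primary transcript. Nuclear subunit genes are known to be bound by NRF-1, by the ETS factor GABP and by YY1.

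Counts assigned to genes ranged from 10168307 to 16939029 per library, and levels are given as CPM, read counts scaled to a common library size with TMM factors. Libraries of 1 genotype and title style were not equally far apart. Over the 79 tested nuclear subunits the chi-square per gene between the T348I long-title libraries was 1.02 to 3.48, a spread close to counting noise. Between the WT long-title libraries it was 6.60 to 18.3. Over the 13 mitochondrial genes, where counts are far higher, it was 6.82 to 195 between the T348I and 153 to 209 between the WT long-title libraries. WT short-title library 1 stood apart in mitochondrial transcripts, as described below. The liver label was set beside hepatocyte markers: 3 of 16 passed the filter, ALB reached at most 0.0977 CPM, TTR was 0 in all 10 libraries, and the list summed to 12.2 to 28.1 CPM. Over all genes tested, 13.7% were called higher and 13.3% lower in T348I libraries (edgeR, adjusted p under 0.05). Of 9 tested mesenchymal markers 3 fell and 0 rose in T348I libraries (sum 12036 to 37824 CPM in WT, 8584 to 13511 in T348I). The epithelial list had 1 riser among 3 tested (673 to 917 and 860 to 1001 CPM), and the 1 tested endothelial marker, PECAM1, was lower (list sums 5.06 to 13.9 and 2.63 to 4.99 CPM). Blood markers summed to 0.0682 to 0.983 CPM. The part of these differences in the subunit values was not tested.

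The sequences below show a stretch shared by a mitochondrial gene pair and motif letters in promoters of nuclear subunit genes. The mitochondrial gene pair MT-ATP8 and MT-ATP6 share 46 bases (chrM:8527-8572, plus strand, GRCh38, GENCODE 29 transcripts), which are 22.2% of MT-ATP8, and reads that fall in both genes were not assigned to either. The capitals mark the start codon of MT-ATP6, which lies inside the MT-ATP8 gene but in another reading frame.
MT-ATP8 and MT-ATP6: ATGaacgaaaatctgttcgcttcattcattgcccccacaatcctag

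Promoters of the nuclear subunits were read from RefSeq (GRCh38.p14), as the 300 bases from 250 before to 50 after the start, and 72 of the 90 genes had an entry. The NRF-1 motif, spelled GCGCA, any base, then GCGC, stood on either strand in 17 of the 72 promoters (23.6%), against 8.57% of 15842 protein-coding promoters. The ETS letters CCGGAAG stood in 20 (27.8%, against 14.2%) and the YY1 letters AANATGGC in 22 (30.6%, against 7.92%). At least 1 of the 3 was present in 43 (59.7%, against 26.5%). A match describes letters only and does not show that a factor binds. In complex IV the NRF-1 letters stood only in the promoter of COX8C, which had 0 counts, and it is not shown. One promoter with the NRF-1 letters, in capitals, is shown for each of the other 4 complexes. NDUFA11 and UQCR11 are accessory subunits of complexes I and III. SDHA is the flavoprotein of complex II, and ATP5ME a membrane subunit of complex V.
NDUFA11 (chr19:5903864-5903903, minus): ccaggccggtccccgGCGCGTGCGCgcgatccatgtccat
SDHA (chr5:218139-218178, plus): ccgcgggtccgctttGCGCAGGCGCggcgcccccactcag
UQCR11 (chr19:1605467-1605506, minus): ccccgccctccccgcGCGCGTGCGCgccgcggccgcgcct
ATP5ME (chr4:674471-674510, minus): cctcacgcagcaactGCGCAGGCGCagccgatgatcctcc

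Few subunit transcripts of either genome were called between the genotypes. With a threshold of 0.05 on the adjusted p (quasi-likelihood test of edgeR, Benjamini-Hochberg over all 13743 genes tested), 1 of the 92 tested subunits rose in T348I and 3 fell, while 27.0% of all genes were called (13.7% higher and 13.3% lower). The rise was in ATP5MC1, and the falls were in SDHC, NDUFA4L2 and MT-ATP8. When the 3 T348I long-title libraries were merged into 1 by adding their counts, only the ATP5MC1 call held, and 10.2% of all genes were called. At an unadjusted p under 0.05 there were 15 of 92 (16.3%), against 39.2% of all genes. The 79 nuclear subunits had a median log2 fold change of 0.0068 and a median standard error of 0.085, and their median absolute log2 fold change was 0.078, beside 0.21 over all genes tested. The 13 mitochondrial genes had a median of -0.30, with all 13 values below 0, so their median absolute value, 0.30, was above that of all genes. Their median standard error was 0.17. The median over all genes was -0.03.

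Mitochondrial transcripts were abundant and were read to similar levels in 9 of the 10 libraries. Summed over the 13 genes, the WT long-title libraries held 39801, 36173 and 38716 CPM, and the WT short-title libraries 71878 and 35898 CPM. The T348I libraries held 38255, 34561 and 34919 CPM in the long-title set and 41167 and 31868 CPM in the short-title set. WT short-title library 1 lay above every other library, and the remaining WT and T348I values overlapped. The 13 genes took 7.41% of the gene counts in that library and 3.28% to 4.17% in the other 9. The WT mean was 44493 ± 15398 CPM (SD, n = 5) and the T348I mean 36154 ± 3605 CPM (n = 5). Without WT short-title library 1 the WT mean was 37647 ± 1916 CPM (n = 4), and the log2 ratio of the means, T348I over WT, moved from -0.30 to -0.06.

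**Figure D1:**
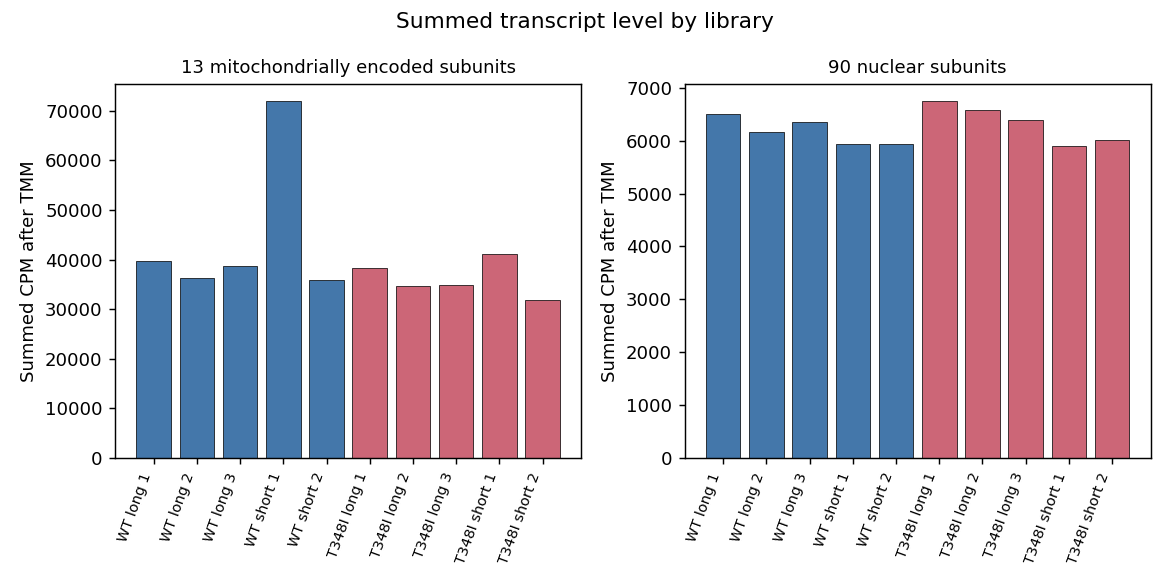
Summed CPM after TMM scaling of the 13 mitochondrially encoded (left) and 90 nuclear subunits (right) in each library, with WT bars in blue and T348I bars in red. The mitochondrial bar of WT short-title library 1 reaches 71878 CPM and the other 9 lie between 31868 and 41167 CPM, whereas the nuclear bars span 5903 to 6742 CPM.

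The nuclear subunits did not share the excess of WT short-title library 1. Their summed level was 5928 CPM there, within the 5903 to 6742 CPM of the 10 libraries. WT libraries averaged 6181 ± 253 CPM and T348I libraries 6327 ± 362 CPM (SD, n = 5 each), a difference smaller than either spread. The ratio of the mitochondrial to the nuclear sum, which does not depend on library scaling, was 12.1 in WT short-title library 1 and 5.25 to 6.97 elsewhere. Set against WT short-title library 2, all 13 mitochondrial genes were higher in library 1, by a median of 2.0-fold, while the nuclear subunits had a median of 1.02-fold. T348I short-title library 1 was above its partner by a median of 1.24-fold over the mitochondrial genes.

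Other measures of WT short-title library 1 moved with this excess. Reads in no annotated gene on the counted strand made up 11.1% of its table, against 5.16% to 7.59% in the others. Nuclear copies of mitochondrial sequence held 1463 CPM, against 490 to 844 CPM, and the strand opposite MT-ND6 held 1838 CPM, against 722 to 1104 CPM. The 2 mitochondrial ribosomal RNAs summed to 17352 CPM there and to 7292 to 14021 CPM in the other libraries. Their part in the result was not tested.

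Complex I takes 7 membrane subunits from mitochondrial DNA. MT-ND4 (ENSG00000198886, chrM:10760-12137), a subunit of the proton-pumping arm, was counted at 6822, 6076 and 6195 CPM in the WT long-title libraries and at 13654 and 6604 CPM in the short-title ones. Its T348I values were 6456, 5831 and 5930 CPM, and 8288 and 6111 CPM. Libraries numbered 1 of the short-title set were the highest of either genotype, and the groups overlapped. The estimate was -0.24 ± 0.17 on the log2 scale (SE; adjusted p = 0.327 in edgeR).

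MT-ND5, another antiporter-like subunit of the same arm, spanned 2569 to 5712 CPM in WT (median 2766) and 2514 to 3416 CPM in T348I (median 2550), with a log2 fold change of -0.28. MT-ND2, the third of these, spanned 1342 to 2748 CPM and 1267 to 1637 CPM (-0.18), and MT-ND1, next to the quinone site, 1264 to 2959 CPM and 1284 to 1873 CPM (-0.19). None of them passed the test, and in each the upper end of the WT range was WT short-title library 1. The small subunits MT-ND3 (-0.35 ± 0.13, edgeR adjusted p = 0.0658) and MT-ND4L (-0.31 ± 0.16, adjusted p = 0.171) gave similar values. MT-ND3 ranged from 513 to 943 CPM in WT and from 429 to 514 CPM in T348I. It passed in DESeq2 (adjusted p = 0.0300), while without WT short-title library 1 its log2 fold change was -0.17.

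MT-ND6 is the only subunit transcribed from the opposite strand of the mitochondrial DNA, and its messenger RNA is known to lack a poly(A) tail. Its own strand held 22.6, 87.4 and 29.3 CPM in the WT long-title libraries, 119 and 44.2 CPM in the WT short-title ones, 39.6, 32.7 and 29.6 CPM in the T348I long-title ones and 69.8 and 58.1 CPM in the T348I short-title ones. WT long-title library 2 was 87.4 CPM beside 22.6 and 29.3 CPM in its set, so the spread among WT libraries was wider than the genotype difference (-0.40 ± 0.32, edgeR adjusted p = 0.387). The strand opposite MT-ND6 held 7389 to 22171 counts per library, 9.76 to 43.3 times those of the gene. The libraries were made from poly(A) RNA, and the part of that selection in the low level was not tested.

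MT-CYB, cytochrome b, is the mitochondrial subunit of complex III. It was counted at 2112, 1652, 1820, 4857 and 2545 CPM in WT libraries (long-title 1 to 3, then short-title 1 and 2) and at 2058, 1862, 1892, 2869 and 2329 CPM in T348I libraries in the same order. Short-title libraries were the higher ones in both genotypes, and the groups overlapped (-0.17 ± 0.17, edgeR adjusted p = 0.481).

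The 3 catalytic-core subunits of complex IV were among the most abundant members. MT-CO1, which holds the oxygen-reducing centre, was counted at 11439, 10314, 11313, 17860 and 8803 CPM in WT and at 10898, 9877, 9994, 9945 and 7563 CPM in T348I libraries, in the same order of libraries. The lowest value of each genotype was short-title library 2, and WT short-title library 1 was the highest of all (-0.30 ± 0.17, edgeR adjusted p = 0.208). MT-CO2, which receives electrons from cytochrome c, had a log2 fold change of -0.29 (adjusted p = 0.207) and MT-CO3 of -0.37 (adjusted p = 0.116). MT-CO3 ranged from 3384 to 6772 CPM in WT and from 2860 to 3547 CPM in T348I.

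**Figure D2:**
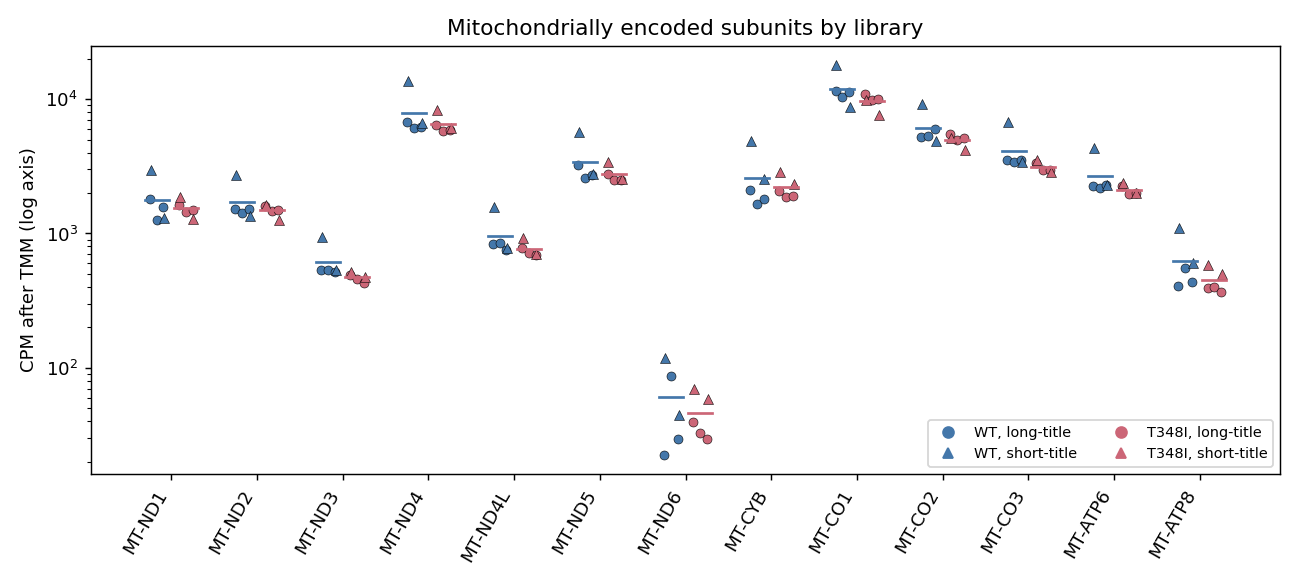
CPM after TMM scaling (log axis) of the 13 mitochondrially encoded subunits in each library, with WT in blue, T348I in red, circles for long-title and triangles for short-title libraries, and a line at each mean of 5. The highest WT point of every gene is WT short-title library 1, at 13654 CPM in MT-ND4 and 119 CPM in MT-ND6.

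Of the 2 mitochondrial subunits of complex V, MT-ATP8 was the 1 mitochondrial gene that was called. MT-ATP8 (ENSG00000228253, chrM:8366-8572), a small membrane subunit, was counted at 405, 556, 435, 1090 and 607 CPM in WT and at 394, 397, 366, 579 and 503 CPM in T348I libraries. Each T348I value was below the WT value of the same title style and number, but those numbers do not pair the libraries, and the groups overlapped. The means were 619 ± 276 and 448 ± 90.2 CPM (SD, n = 5), and the log2 estimate was -0.42 ± 0.15 (SE; edgeR adjusted p = 0.0493). The call ended without WT short-title library 1 (-0.24, adjusted p = 0.1005), with the merged T348I libraries (adjusted p = 0.142) and without the title term (adjusted p = 0.283). It also ended without any 1 of WT long-title libraries 2 and 3 or of the 5 T348I libraries (adjusted p = 0.0523 to 0.129). MT-ATP6, the subunit that forms the proton channel beside the rotating ring, ranged from 2180 to 4320 CPM in WT and from 1974 to 2392 CPM in T348I and did not pass (-0.31 ± 0.15, adjusted p = 0.154).

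The size of the mitochondrial estimates depended on the set of libraries. In the long-title libraries alone the median log2 fold change over the 13 genes was -0.12, with 11 below 0 and 0 called, where 8.94% of 13385 genes were called. In the short-title libraries alone it was -0.52, with 13 below 0 and 0 called, where 10.6% of 14531 genes were called. At an unadjusted p under 0.05 these fits gave 0 and 4 of the 13 (30.8%), where 27.3% and 27.0% of all genes passed that level. Without WT short-title library 1 the median was -0.07, with 10 of 13 below 0, 0 called and 2 at an unadjusted p under 0.05, where 24.0% of genes were called and 37.5% passed unadjusted. MT-CYB, MT-ND1 and MT-ND2 were then at 0.05, 0.06 and 0.05. The difference between the title styles did not pass its own test in any gene of the 13743 (edgeR interaction, 459 genes at an unadjusted p under 0.05, 0 of them subunits), and DESeq2 called 2 genes, neither of them a subunit. With no filter on low counts, edgeR called 8 of the 13 lower over all 10 libraries, where 6.70% of genes were called lower. That share is over 30742 genes, including those that the usual filter removes, and with the filter it was 13.3%. The median over the 13 genes was -0.28 without the filter and -0.30 with it, while their median standard error was 0.096 and 0.17. DESeq2 with the usual filter called 2 of the 13 lower, where 14.3% of its genes were called lower.

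**Figure D3:**
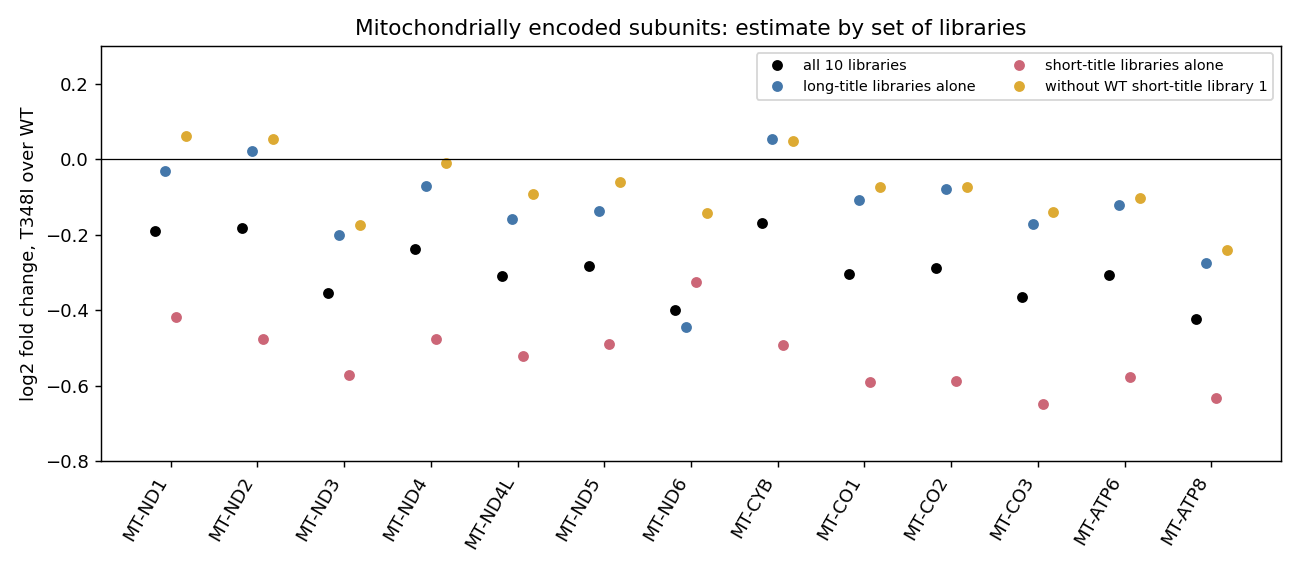
Log2 fold change, T348I over WT, of each mitochondrially encoded subunit from edgeR in all 10 libraries (black), the long-title libraries alone (blue), the short-title libraries alone (red) and without WT short-title library 1 (yellow). Black points lie between -0.42 and -0.17, and 10 of the 13 yellow points lie below 0 with a median of -0.07.

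Per length of annotated exon, mitochondrial messenger RNAs stood far above nuclear ones in these libraries. The mean level over 10 libraries had a median of 2576 CPM per kb over the 13 mitochondrial genes and of 21.3 CPM per kb over the 79 tested nuclear genes. MT-CO2 had the highest value, 8139 CPM per kb, followed by MT-CO1 with 7004 and MT-ND4 with 5223. MT-ND6 had the lowest mitochondrial value, 101 CPM per kb. Among nuclear genes the catalytic beta subunit of complex V, ATP5F1B, had 195 CPM per kb and NDUFS5, an accessory subunit of complex I, 172 CPM per kb. The lowest was NDUFV2 (0.297 CPM per kb), a subunit of the electron input module, whose exons overlap another gene on the same strand over 28.4% of their length. Its counts exclude reads that fit several places, so its level is uncertain. Exon length is the union of all annotated exons, which understates genes with many alternative exons.

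Nuclear subunits of complex I were close to even between genotypes, with a median log2 fold change of -0.01. Of 36 tested genes 0 were called higher and 1 lower, where 13.7% and 13.3% of all genes were. NDUFV1, the flavoprotein where NADH is oxidised and the nuclear complex I gene with the highest CPM, was counted at 432, 362, 439, 443 and 449 CPM in WT and at 443, 436, 434, 455 and 445 CPM in T348I libraries. WT long-title library 2 was the low value, and the other 9 lay between 432 and 455 CPM (0.06 ± 0.07, edgeR adjusted p = 0.591).

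NDUFA4L2 (ENSG00000185633, chr12:57234903-57240715, minus strand) was the gene called lower. It is counted under complex I here by its symbol alone. Its product resembles NDUFA4, which is now placed in complex IV, and it is known as a gene induced by hypoxia. It was counted at 8.46, 6.58, 9.64, 2.57 and 2.48 CPM in WT and at 6.01, 5.53, 6.15, 1.92 and 2.01 CPM in T348I libraries. Long-title libraries lay above short-title ones in both genotypes, and within each title style every T348I value was below every WT value. NDUFA4L2 was named because it was called, and how many of all genes separate within both styles was not counted. The estimate was -0.44 ± 0.14 (log2, SE; edgeR adjusted p = 0.0370), and the call ended with the merged T348I libraries (adjusted p = 0.203), without the title term (0.587), and in 8 of 10 fits that left out 1 library (up to 0.106, the 2 others being without WT long-title library 2 or WT short-title library 1). NDUFA4 itself averaged 104 ± 20.7 and 97.9 ± 12.6 CPM and did not pass (-0.08, adjusted p = 0.666).

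The groups did not overlap in 2 of the 92 tested subunits, against 11.1% of all genes tested, and in both T348I was higher (6.94% of all genes). One was ATP5MC1, described below, and the other NDUFS6, an accessory subunit that binds zinc. NDUFS6 stood at 47.7, 52.9, 53.5, 40.5 and 53.3 CPM in WT and at 56.6, 57.4, 57.1, 55.9 and 55.0 CPM in T348I libraries. The T348I values were tightly grouped just above the highest WT value, and the gene did not pass (0.19 ± 0.08, edgeR adjusted p = 0.102). NDUFB9, an accessory subunit of the membrane arm, lay just outside the threshold (0.24 ± 0.09, adjusted p = 0.0515), at 54.2, 55.6, 59.8, 58.6 and 47.7 CPM in WT and 75.5, 74.4, 66.5, 58.4 and 53.5 CPM in T348I. Its long-title values were separated by genotype and its short-title values were not. It passed in DESeq2 (adjusted p = 0.0478) and limma-voom (0.0495), and without WT short-title library 1 (0.0102). NDUFS6 and NDUFB9 were singled out after their values were seen.

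Complex II oxidises succinate and feeds coenzyme Q, and SDHC is 1 of the 2 proteins that anchor it in the membrane. SDHC (ENSG00000143252, chr1:161314257-161375340, plus strand) was counted at 95.8, 97.5, 93.7, 77.9 and 75 CPM in WT and at 86.5, 84.9, 80.0, 58.9 and 65.7 CPM in T348I libraries. Within each title style the T348I values were all below the WT values, while across the styles the groups overlapped. The gene was named because it was called, and the share of all genes separated within both styles was not counted. Means were 88.0 ± 10.7 and 75.2 ± 12.2 CPM (SD, n = 5), a log2 fold change of -0.23 ± 0.06 (SE; edgeR adjusted p = 0.0168). The call ended with the merged T348I libraries (adjusted p = 0.119), without the title term (0.298), with no low-count filter (0.170), and without T348I long-title library 3 (0.0569) or T348I short-title library 1 (0.0638). The catalytic SDHA averaged 149 ± 16.9 and 149 ± 4.80 CPM and did not differ beyond its spread (0.01 ± 0.08, adjusted p = 0.950).

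Of the 9 and 11 tested nuclear genes with symbols of complexes III and IV, 0 were called in edgeR, DESeq2 or limma-voom. These tools called 27.0%, 28.5% and 26.9% of all genes. At an unadjusted p under 0.05 edgeR gave 1 and 2 of the complex III and IV genes, where 39.2% of all genes passed that level. NDUFA4 and NDUFA4L2 are not in this count. UQCRC2, a core protein of complex III, averaged 110 ± 11.7 CPM in WT and 112 ± 4.85 CPM in T348I (0.03 ± 0.07, adjusted p = 0.770). The hinge subunit UQCRH averaged 103 ± 8.27 and 108 ± 15.5 CPM and its near-identical relative UQCRHL 17.3 ± 2.25 and 18.8 ± 3.82 CPM. Reads common to this pair could not be counted for either, so both levels are uncertain. In complex IV, COX4I1, a regulatory subunit, averaged 123 ± 11.3 and 121 ± 12.1 CPM (-0.03 ± 0.06, adjusted p = 0.788).

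The complex IV subunits with tissue-specific forms were read almost wholly from the widely expressed form. COX4I2 held 1 count over all 10 libraries, COX7B2 held 2, and COX6A2, COX6B2, COX7A1 and COX8C held 0. Their partners COX6A1 (26.3 and 26.4 CPM in WT and T348I), COX6B1 (64.1 and 62.5), COX7A2 (82.3 and 82.6) and COX7B (88.8 and 84.6) were even between the genotypes within their spread. COX7A2L, known for its part in supercomplexes, averaged 86.5 and 95.5 CPM (0.15 ± 0.06, edgeR adjusted p = 0.0935). COX8A averaged 33.8 and 40.1 CPM (0.25 ± 0.11, adjusted p = 0.129), and 34.5% of its exon length is shared with another gene. These and 5 further untested genes, NDUFA13 (103 counts), NDUFA7 (30), NDUFC2-KCTD14 (0), ATP5MF-PTCD1 (15) and ATP5MGL (10), make up the 11 nuclear members without a test. NDUFA13, NDUFA7, NDUFC2-KCTD14 and ATP5MF-PTCD1 share 21.0%, 32.3%, 100% and 88.3% of their exon length with other genes on the same strand. Low counts there may therefore not show low expression, and the part of the overlap in these counts was not tested.

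**Figure D4:**
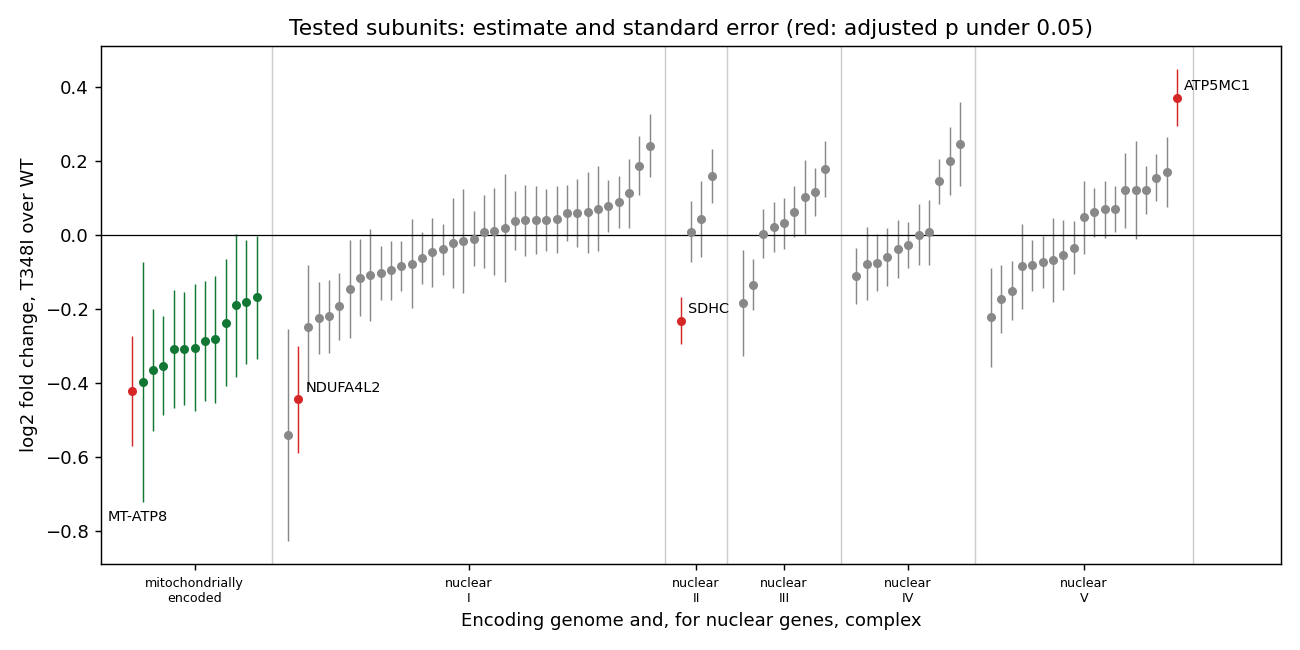
Log2 fold change, T348I over WT, with its standard error for the 92 tested subunits, ordered within each group by value, where green marks mitochondrially encoded, grey nuclear and red called genes. The 4 red genes are MT-ATP8, NDUFA4L2, SDHC and ATP5MC1, and the nuclear values run from -0.54 to 0.37.

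In complex V, 1 of 19 tested nuclear genes rose and 0 fell, where 13.7% and 13.3% of all genes did. ATP5MC1 (ENSG00000159199, chr17:48892765-48895871, plus strand) is 1 of 3 genes that encode the same mature c subunit, the building block of the rotating ring in the membrane. It was counted at 41.2, 38.3, 39.2, 43.4 and 37.9 CPM in WT and at 53.3, 53.7, 48.5, 55.9 and 47.3 CPM in T348I libraries. Every T348I library was above every WT library, in both title styles. Means were 40.0 ± 2.26 and 51.7 ± 3.63 CPM (SD, n = 5), a 1.29-fold rise (log2 0.37 ± 0.08, edgeR adjusted p = 0.00344). The estimate was 0.39 in the long-title (adjusted p = 0.0401) and 0.36 in the short-title set by itself, where it did not pass (adjusted p = 0.1104). The call held without each library in turn (adjusted p = 0.00244 to 0.0158).

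The other two genes of the c subunit did not pass. ATP5MC2 was counted at 121, 75.5, 97.0, 87.1 and 93.4 CPM in WT and 106, 107, 111, 97.5 and 95.1 CPM in T348I libraries (0.12 ± 0.10, edgeR adjusted p = 0.401). ATP5MC3 was counted at 152, 139, 147, 125 and 121 CPM and at 169, 163, 169, 135 and 128 CPM (0.16 ± 0.06, adjusted p = 0.0866). Its T348I values were above the WT values within each title style and overlapped across them, and the share of all genes with such an order was not counted. ATP5F1B, the catalytic beta subunit and the nuclear complex V gene with the highest CPM, averaged 426 ± 70.5 and 478 ± 38.8 CPM (0.17 ± 0.09, adjusted p = 0.198). The inhibitor ATP5IF1, which blocks the enzyme from running backward, averaged 53.0 ± 7.61 and 51.6 ± 4.49 CPM (-0.04 ± 0.07, adjusted p = 0.748).

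**Figure D5:**
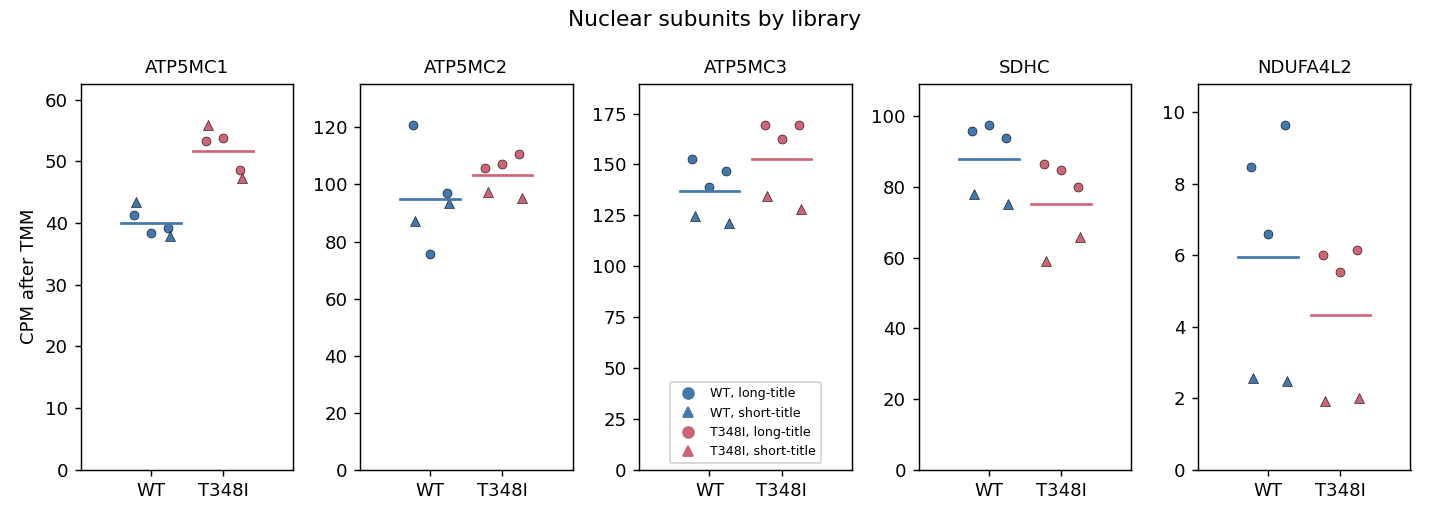
CPM after TMM scaling of the 3 c-subunit genes, SDHC and NDUFA4L2 in each library, with WT in blue, T348I in red, circles for long-title and triangles for short-title libraries, and a line at each mean of 5. ATP5MC1 points run from 37.9 to 43.4 CPM in WT and from 47.3 to 55.9 CPM in T348I, while the groups of the other 4 genes overlap.

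The upstream sequences of ATP5MC1 and ATP5MC2 are shown because the genes encode the same mature protein and only ATP5MC1 was called. Each run is the 150 bases before the RefSeq start (GRCh38.p14). Capitals mark CCAAT and the cyclic-AMP response letters TGACGTCA, searched on both strands. These motifs were chosen after the ATP5MC1 sequence was read. ATP5MC1 holds 3 of the first and 1 of the second in this window, and ATP5MC2 holds 0 of either. The 2 windows are not placed alike in the gene annotation matched to the counts. There ATP5MC1 starts at 48892765, near the end of its window. ATP5MC2, on the minus strand, starts at 53677408, so its window lies inside the annotated gene. Bases before that outer start were not searched, so the contrast holds for the RefSeq windows only. None of ATP5MC1, ATP5MC2 and NDUFA4L2 had the NRF-1, ETS or YY1 letters. SDHC and ATP5MC3 were among the genes without an entry. Over all nuclear subunits 25 of 72 promoters held CCAAT (34.7%, against 36.4% of all promoters) and 5 held TGACGTCA (6.94%, against 2.59%).
ATP5MC1 (chr17:48892637-48892786, plus): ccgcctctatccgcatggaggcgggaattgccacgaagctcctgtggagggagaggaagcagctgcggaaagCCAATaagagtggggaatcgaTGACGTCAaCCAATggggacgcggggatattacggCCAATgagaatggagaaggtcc
ATP5MC2 (chr12:53676084-53676233, minus): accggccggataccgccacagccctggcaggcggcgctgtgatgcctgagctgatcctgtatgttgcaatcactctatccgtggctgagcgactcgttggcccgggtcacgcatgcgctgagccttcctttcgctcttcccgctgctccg

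Genes that build, feed or regulate the chain are given by list, beside the 13.7% of all tested genes called higher and 13.3% called lower. Beside the members, 3 tested subunits and carriers with symbols outside the naming patterns formed a list, of which 2 rose and 0 fell: CYC1, the cytochrome c1 subunit of complex III, went from 47.5 ± 8.55 to 62.7 ± 6.76 CPM (0.40 ± 0.10, edgeR adjusted p = 0.00997), and CYCS, cytochrome c, from 170 ± 49.9 to 216 ± 33.8 CPM (0.36 ± 0.12, adjusted p = 0.0345). With the merged T348I libraries neither was called (adjusted p = 0.0656 and 0.119).

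Of 19 tested assembly factors of complex I, 3 rose and 0 fell, with a median log2 fold change of 0.12. NDUFAF2, which acts late in assembly, went from 20.6 ± 1.74 to 27.8 ± 0.844 CPM (0.43 ± 0.08, edgeR adjusted p = 0.00210), and NDUFAF4 and NDUFAF8 rose by 0.41 and 0.38. Among 13 assembly factors of complexes II, III and V, 2 rose and 0 fell (median 0.08), namely UQCC1 (0.25) and ATPAF1 (0.23). Among 20 of complex IV, 3 rose and 0 fell (median 0.02), namely COA4 (0.27), CMC2 (0.48) and TACO1 (0.26), which activates translation of MT-CO1. Only NDUFAF2 of these 8 genes kept its call with the merged T348I libraries.

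Coenzyme Q synthesis had 2 risers and 1 faller among 13 tested genes (median 0.0053). PDSS1, a subunit of the enzyme that makes the isoprenoid tail, went from 6.40 ± 1.17 to 11.2 ± 1.33 CPM (0.80 ± 0.14, edgeR adjusted p = 0.00113), and COQ2, which joins tail and ring, rose by 0.37. COQ8A, an atypical kinase of the pathway, went from 21.8 ± 3.89 to 15.1 ± 1.37 CPM (-0.53 ± 0.11, adjusted p = 0.00373). The groups did not overlap in any of the 3, which were named because they were called, and in 11.1% of all genes tested. In the citric acid cycle, which supplies NADH and succinate, 2 of 13 rose and 0 fell (median 0.08): fumarase, FH, from 61 ± 13 to 86.7 ± 10.4 CPM (0.52 ± 0.08, adjusted p = 0.000725) and citrate synthase, CS, by 0.26.

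Genes that copy and transcribe mitochondrial DNA went both ways, with 4 of 19 higher and 1 lower (median -0.0051). The nuclease MGME1 went from 46.5 ± 9.61 to 66.4 ± 4.84 CPM (0.51 ± 0.11, edgeR adjusted p = 0.00443) and the topoisomerase TOP3A from 27.2 ± 4.6 to 35.5 ± 5.94 CPM (0.38 ± 0.08, adjusted p = 0.00297). TFAM, which packages mitochondrial DNA and starts its transcription, went from 51.2 ± 12.6 to 65.9 ± 7.74 CPM (0.37 ± 0.11, adjusted p = 0.0265), and the thymidine kinase TK2 fell by 0.31 on the log2 scale. Of 21 genes that process or degrade mitochondrial RNA, 2 rose, TBRG4 (0.27) and PNPT1 (0.35), and 0 fell (median 0.06).

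Of 11 tested nuclear regulators of mitochondrial genes, 3 rose and 2 fell (median 0.07). Among the subunits of GABP, GABPB1 went from 36.0 ± 6.33 to 47.5 ± 6.14 CPM (0.40 ± 0.10, edgeR adjusted p = 0.00935) and GABPA, which binds DNA, from 37.4 ± 4.99 to 29.9 ± 1.06 CPM (-0.32 ± 0.09, adjusted p = 0.0175). With the merged T348I libraries neither passed (adjusted p = 0.0772 and 0.151). GABPB2 did not pass (0.11 ± 0.08, adjusted p = 0.315), and the differences between these genes were not tested. The coactivator PPRC1 rose by 0.34 and MYC by 0.95. PPARGC1A, the coactivator PGC-1alpha, averaged 4.48 ± 3.68 and 1.81 ± 0.558 CPM (-1.19 ± 0.42, adjusted p = 0.0495), with -1.93 in the long-title and -0.06 in the short-title libraries alone. Its call ended with the merged T348I libraries (adjusted p = 0.304) and without WT short-title library 1 (0.0519). Across these pathway lists, NDUFAF2, PDSS1, COQ8A, MGME1 and MYC kept their calls with the T348I libraries merged, without the title term and without each library in turn. Of these settings, FH and TOP3A lost their calls only without the title term (adjusted p = 0.0536 and 0.122), and every other gene named from the lists was not called with the merged libraries.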

How the data were processed

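Per the labels, poly(A) RNA was made into stranded libraries. Per the submitters' processing notes, CASAVA 1.8.2, Trimmomatic 0.35, STAR 2.5.1b and GRCh38 were used, and the counting annotation is not given in the sources used here. The authors deposited, per library, whole-number read counts per gene without normalization, and the opposite-strand counts were used, which held 92.2% to 94.5% of strand-assigned reads. Lines that name no gene held 20.7% to 30.0% of reads and stayed out of library sizes. Identifiers were matched to GENCODE 29 (57836 of 58174).

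Counts were analysed in R 4.3.3 with edgeR 4.0.16: filterByExpr (minimum count 10, minimum total 15), TMM, quasi-likelihood F test of genotype with a term for title style, and Benjamini-Hochberg adjustment over 13743 genes with a threshold of 0.05. Standard errors were obtained by dividing the log2 estimate by the root of its F value. Alternatives were other scalings, DESeq2 1.42.0, limma-voom (limma 3.58.1), other filters, unstranded counts, subsets of libraries, the T348I long-title libraries merged into 1, and the replicate number as a block. On simulated counts of 13743 genes, 50 genes were changed at each size, far fewer than the 27.0% called in these data. The genotype test found 14% of the 50 with a true log2 change of 0.32. It found 64% of the 50 with a 1.5-fold change and 88% of the 50 with a 2-fold change, and 6.38% of its calls were false. With so few changed genes the adjusted threshold is stricter, so these shares do not carry over directly to the subunits.

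Members and lists were chosen with earlier results of these data known. Named were all mitochondrial genes, called nuclear members and the most abundant one per complex, the isoform families, ATP5IF1, and up to 3 called genes per direction of each pathway list.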

Additional observations from a re-analysis of the deposited data

Results flagged for a closer look

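Of 58 sets of 5 libraries examined for a value far from the rest, some stood out by Dixon's test, which flags about 1 in 20 groups by chance. WT short-title library 1 was far above the other WT libraries in MT-ND2 (2748 CPM), MT-ND3 (943 CPM), MT-ND4 (13654 CPM), MT-ND4L (1574 CPM) and MT-ND5 (5712 CPM). It was also far above them in MT-CYB (4857 CPM), MT-CO2 (9270 CPM), MT-CO3 (6772 CPM), MT-ATP6 (4320 CPM) and the summed mitochondrial level (71878 CPM). These genes come from 1 library and largely from 1 primary transcript, so they are not separate events. T348I short-title library 1 was far above the other T348I libraries in MT-ND4 (8288 CPM) and MT-ND5 (3416 CPM). WT long-title library 2 was low in NDUFV1 (362 CPM). Signal outside the main measurement was found on the strand opposite MT-ND6, with 7389 counts in the lowest and 22171 in the highest library.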

How the results depend on the processing

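Over all genes, 1884 were higher and 1825 lower; without the title term 818 and 497 were called, in the long-title libraries alone 698 and 499, in the short-title ones alone 935 and 599, and with the merged T348I libraries 899 and 563. Leaving out 1 library gave 1342 to 2379 higher and 1108 to 2297 lower, the fewest lower ones without T348I short-title library 1 (1108) and T348I long-title library 1 (1204). The 1 mitochondrial subunit called lower became 0 with library sizes alone, limma-voom, no title term, either title style alone or the merged libraries, 2 with DESeq2 or the replicate block and 8 with no low-count filter, and ranged from 0 to 3 when 1 library was left out (3 without WT short-title library 2). No setting called a mitochondrial subunit higher. The 1 nuclear subunit called higher became 2 with DESeq2, limma-voom or no filter, 4 without WT long-title libraries 1 and 2, and 0 in the short-title libraries, and 1 to 3 without 1 library. The 2 called lower became 0 with no filter, no title term, either style alone or the merged libraries and 1 with unstranded counts, and 0 to 3 without 1 library. The interaction had 0 calls in edgeR and 2 in DESeq2. The causes of these differences between settings were not tested. Log2 ratios of the summed levels ranged from -0.37 to -0.06 (mitochondrial) and from 0.0097 to 0.058 (nuclear). Same-numbered libraries deviated together unevenly (correlations of -0.03, 0.16 and 0.07 in the long-title and 0.22 in the short-title set), so the numbers were not taken as pairs. The replicate block added a call for MT-ND3 (adjusted p = 0.0435). Depth limits NDUFV2 and NDUFA4L2 most. True changes under about 1.5-fold were often missed in simulated data, where far fewer genes were changed than were called here.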
